A study of Mus musculus with 9 samples.

Results

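The subject is a set of 10 genes of the lipid droplet and of triglyceride storage in mouse liver, namely Plin2, Plin3, Plin4, Plin5, Cideb, Cidec, Pnpla2, G0s2, Dgat1 and Dgat2. They were taken as the rows of the gene expression table whose gene name equals one of these symbols, and 13 of the 52151 rows did so. Of these, 9 rows hold known transcripts, 1 for each gene other than Plin4, and the remaining 4 hold only transcripts assembled from the reads, under the names Dgat1, Dgat2, Cidec and Plin3. Plin4 has no row. Its 2 annotated transcripts were merged with those of its neighbour Plin5, 1797 bp away on the same strand, so that every value given here for Plin5 is the level of Plin5 and Plin4 together.

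Liver RNA was sequenced in 3 libraries of pair-fed mice (PF, isocaloric control liquid diet), 3 of alcohol-fed mice (AF, Lieber-DeCarli liquid diet with alcohol) and 3 of mice on the alcohol diet with daily intraperitoneal MNA at 50 mg/kg (AF with MNA). The labels do not spell out MNA, and no group received MNA without alcohol. The mice were 8 weeks old by the labels and were fed for 5 weeks, and the methods state male animals killed after fasting for the PF and AF groups. The strain label reads C57BL/6 for PF and AF and C57BL/7, C57BL/8 and C57BL/9 for the 3 libraries of AF with MNA. By these labels, strain and MNA cannot be told apart. Levels are in FPKM, fragments scaled to the length of the transcript and to the mapped fragments of the library, so that genes can be compared per unit of length.

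A lipid droplet is a store of triglyceride and cholesterol ester under a single layer of phospholipid, and liver cells fill it when fatty acids arrive faster than they are burned or exported. Diacylglycerol acyltransferases (Dgat1, Dgat2) make the triglyceride, perilipins (Plin) coat the droplet and regulate access to it, CIDE proteins (Cideb, Cidec) act on droplet fusion and on the loading of lipoproteins, and adipose triglyceride lipase (Pnpla2) starts the breakdown, held back by its inhibitor G0s2. Alcohol feeding is a classical cause of droplet accumulation in liver, and several of these genes are known targets of the fatty acid receptors of the PPAR family.

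The tissue matched its label. The hepatocyte marker Alb ranged from 10882 to 17386 FPKM over the 9 libraries. The fat cell markers Plin1, Adipoq and Cidea did not exceed 0.05, 0.03 and 0.08 FPKM, and the summed skeletal muscle markers did not exceed 0.03 FPKM, so that the droplet genes below were read in libraries with defining fat cell markers at or near 0. The relative depth, from the constant that links junction counts and their normalized signal, ran from 1 to 1.42 across libraries. AF replicate 3 and AF with MNA replicate 1 stood apart in the summed FPKM of lncRNAs inside introns, with 9433 and 8934 FPKM against 2477 to 4937 FPKM in the other 7 libraries. AF replicate 2 had the lowest median level over 12252 expressed genes, 2.35 FPKM against 2.56 to 2.77 FPKM in the others. In bulk liver, fewer cells of a type and less RNA per cell cannot be told apart, and the labels do not say whether each library is 1 animal.

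Among the 9 genes with a row, the order of levels was led by Dgat2 and Cideb, whose group means lay between 98.9 and 141 FPKM and whose libraries overlapped. Plin2 and G0s2 followed at group means of 37.2 to 82.6 FPKM and overlapped each other. Pnpla2 came next by mean at 20.9 to 35.4 FPKM, apart from both in PF and AF with MNA but overlapping both in AF, where it was above both in replicate 1 (34.6 against 25.9 and 10.9 FPKM). Plin5 (with Plin4), Plin3 and Dgat1 lay at 4.44 to 11.3 FPKM and overlapped one another in PF. Cidec was lowest at 0.45 to 1.11 FPKM.

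**Figure D1:**
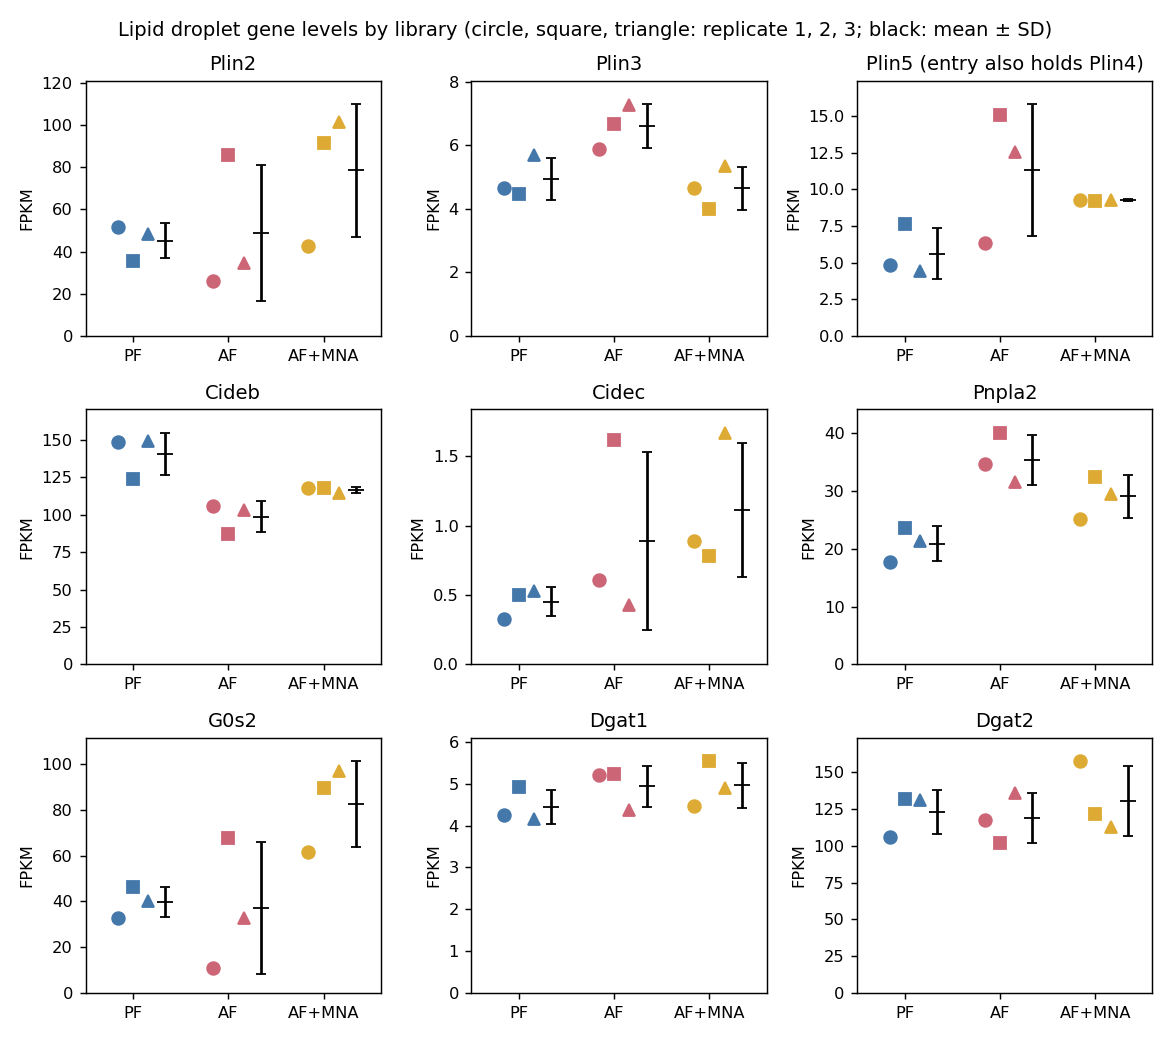
FPKM of the 9 entries in each library (circle, square and triangle are replicates 1, 2 and 3), with the mean and SD of the 3 libraries of a group in black and a linear axis from 0. Pnpla2 sits higher and Cideb lower in all 3 AF libraries than in all 3 PF libraries, while Plin2 and G0s2 spread over a wide range within AF.

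The promoters of Plin2, G0s2 and Pnpla2 are shown because these genes carry the main patterns below. Plin2 and G0s2 varied together across libraries, and G0s2 is the inhibitor of the lipase made from Pnpla2. Each sequence is the 250 bases before the transcription start in RefSeq (GRCm38.p6), read 5′ to 3′ on the strand of the gene. Plin2 was read at chr4:86670060-86670309 (minus strand), G0s2 at chr1:193273189-193273438 (minus strand) and Pnpla2 at chr7:141454938-141455187 (plus strand). Capitals mark a GC box (GGGCGG on either strand) or a CCAAT box (CCAAT on either strand).
Plin2: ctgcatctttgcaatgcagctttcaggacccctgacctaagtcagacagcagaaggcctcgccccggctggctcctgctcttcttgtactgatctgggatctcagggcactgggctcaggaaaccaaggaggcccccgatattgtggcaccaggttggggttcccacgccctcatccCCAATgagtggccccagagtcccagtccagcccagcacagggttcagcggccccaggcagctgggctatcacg
G0s2: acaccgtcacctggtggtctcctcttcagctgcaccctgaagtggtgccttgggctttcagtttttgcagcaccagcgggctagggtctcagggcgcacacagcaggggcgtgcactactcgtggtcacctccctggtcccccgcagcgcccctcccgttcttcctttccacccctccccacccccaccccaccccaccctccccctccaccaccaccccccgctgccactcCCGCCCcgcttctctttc
Pnpla2: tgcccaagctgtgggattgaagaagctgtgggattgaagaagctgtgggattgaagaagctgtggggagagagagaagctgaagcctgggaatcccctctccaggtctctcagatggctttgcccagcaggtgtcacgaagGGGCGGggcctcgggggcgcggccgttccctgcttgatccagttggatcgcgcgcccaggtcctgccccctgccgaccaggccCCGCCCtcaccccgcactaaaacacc
G0s2 holds 1 GC box and Pnpla2 holds 2, while Plin2 holds none and has 1 CCAAT box. RefSeq and GENCODE M21 do not place the starts alike. The G0s2 window runs into the GENCODE span of the gene, which reaches 193273217, and its GC box lies in that stretch. The Pnpla2 window ends at 141455187, before the GENCODE start at 141455198. Over 32851 mouse promoter windows of the same length, 32.7% hold GGGCGG and 33.8% hold CCAAT, so both motifs are common. The G+C content of the 3 windows was 61.6% for Plin2, 67.2% for G0s2 and 63.2% for Pnpla2, against a median of 52.4% over all windows. A direct repeat of the kind that PPAR receptors bind, 2 copies of AGGNCA with 1 base between them on either strand, was searched as well. It is in 0.338% of all windows and in none of the 10 windows listed for 8 of the genes, which says only that these letters are not in these windows. The promoters of Dgat1 and Dgat2 were not analysed here.

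The comparison of AF with PF asks how the droplet genes differ under alcohol feeding. Pnpla2, the lipase, was 1.70-fold higher and Cideb was lower, at 0.703 of its PF level, and in both the libraries of the groups did not overlap. Plin3 was 1.34-fold higher, also without overlap, and Plin5 (with Plin4) was 2.01-fold higher with overlap. None of the 9 entries reached an adjusted p under 0.05 in limma (moderated linear models of log2(FPKM + 1), Benjamini-Hochberg over all genes). The lowest adjusted p was 0.161, for Pnpla2. Without adjustment 4 of 9 had p under 0.05, 3 of them higher in AF and 1 lower, where 11.7% of the 12268 genes tested did (5.1% higher and 6.58% lower). The study's methods set a threshold for lncRNAs in Ballgown, an unadjusted p under 0.05 and a fold over 2 in either direction. Applied here to gene entries with the p of limma, and called the threshold of the methods, it was passed by 1 of 9 (Plin5), against 4.3% of all genes. Of all genes, 0.326% passed the adjusted p. The libraries did not overlap for 3 of 9 entries, against 18.3% of all genes. The median difference was 0.13 on the log2 scale over the 9 entries, 0.036 without Cidec, which entered the test through AF, and -0.03 over all genes.

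The comparison of AF with MNA against AF asks how the droplet genes differ with MNA on the alcohol diet, where the strain label differs too. The largest difference was in G0s2, 2.22-fold higher with MNA, and the 2 groups overlapped. Plin3 was lower, at 0.705 of the AF level, with no overlap, and Cideb was 1.18-fold higher, with no overlap. None of the 9 entries reached an adjusted p under 0.05, and the lowest was 0.940 in limma. Of all 12214 genes tested, 0.0491% did so. Without adjustment 1 of 9 had p under 0.05 (Plin3), where 5.22% of all genes did, and 0 of 9 passed the threshold of the methods, where 1.98% did. The 2 entries without overlap compare with 10.1% of all genes. The median difference was 0.13 on the log2 scale over the 9 entries and 0.01 over all genes.

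The comparison of AF with MNA against PF holds alcohol, MNA and the strain label together, and it shares its libraries with the 2 comparisons above. Here G0s2 was 2.08-fold, Cidec 2.46-fold, Plin5 (with Plin4) 1.65-fold and Pnpla2 1.39-fold higher, each with all 3 libraries above all 3 PF libraries. None of the 9 entries had an adjusted p under 0.05, and the lowest was 0.152 in limma, for G0s2. Without adjustment these 4 of 9 had p under 0.05, all higher, where 6.52% of the 12276 genes tested were higher and 7.94% lower. G0s2 and Cidec passed the threshold of the methods, 2 of 9 against 3.89% of all genes. Cidec averaged under the minimum of the test (0.5 FPKM) in PF and entered it through AF with MNA, and without it 1 of 8 passed that threshold and 3 of 8 had p under 0.05. Of all genes, 0.432% passed the adjusted p. Libraries did not overlap for 5 of 9 entries (4 of 8 without Cidec), against 21.4% of all genes. The median difference was 0.46 on the log2 scale over the 9 entries, 0.30 without Cidec and -0.02 over all genes.

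**Figure D2:**
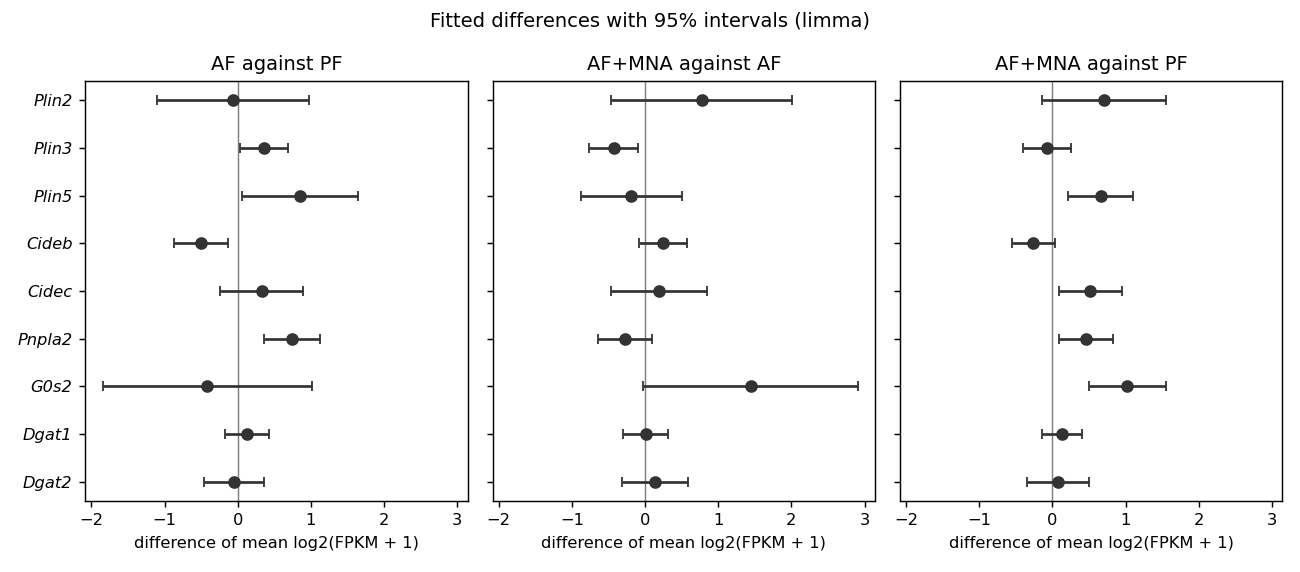
Difference of the mean log2(FPKM + 1) for each entry in the 3 comparisons, with the 95% interval of the limma fit as bars and a line at 0. In AF against PF the intervals of Pnpla2, Plin3 and Plin5 lie above 0 and that of Cideb below it, with MNA against AF that of Plin3 lies below 0, and with MNA against PF those of G0s2, Plin5, Pnpla2 and Cidec lie above 0. The intervals of Plin2 and G0s2 are wide in both comparisons that use AF.

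Plin2, the main perilipin of hepatocytes and a common tissue marker of fat storage, lies on chromosome 4 (chr4:86648386-86670060, minus strand; all gene positions are GENCODE M21 on GRCm38). Its entry in the table also holds a transcript of Gm12551. It was at 51.6, 35.7 and 48.3 FPKM in PF replicates 1 to 3, at 25.9, 85.8 and 34.5 FPKM in AF, and at 42.7, 91.4 and 101 FPKM in AF with MNA. AF replicate 2 was above every PF library and the other 2 AF libraries were below every PF library. The group means were 45.2 ± 8.40, 48.7 ± 32.4 and 78.5 ± 31.4 FPKM (SD, n = 3 each). The fitted difference of AF from PF was -0.07 on the log2 scale, with a 95% interval of -1.10 to 0.97, an interval wide enough to hold a large difference either way. AF with MNA differed from PF by 0.71 (SE 0.35, adjusted p = 0.434, limma), by 1.09 (adjusted p = 0.143, limma) without AF with MNA replicate 1, by 0.48 (adjusted p = 0.667, limma) without AF with MNA replicate 3, and by 0.30 in a fit with library size as a covariate and no moderation. Leaving out AF replicate 2 changed the AF difference to -0.56 and leaving out AF replicate 1 turned it to 0.28.

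Plin3, a perilipin found in most tissues that moves between cytosol and small droplets, lies at chr17:56277476-56292873 on the minus strand. It read 4.66, 4.45 and 5.68 FPKM in PF, 5.88, 6.67 and 7.25 FPKM in AF, and 4.64, 3.98 and 5.33 FPKM in AF with MNA. Every AF library was above every library of the other 2 groups, and PF and AF with MNA overlapped. The difference of AF from PF was 0.36 on the log2 scale (SE 0.14, adjusted p = 0.392, limma). The difference of AF with MNA from AF was -0.43 (SE 0.14, adjusted p = 0.940, limma). Both differences rest on the same 3 AF libraries.

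Plin5, a perilipin of tissues that burn fat and a link between droplet and mitochondrion, lies at chr17:56111601-56117596, and Plin4, a perilipin best known from fat tissue, at chr17:56100591-56109803, both on the minus strand. Their joint entry read 4.81, 7.60 and 4.45 FPKM in PF, 6.34, 15.0 and 12.6 FPKM in AF, and 9.27, 9.17 and 9.30 FPKM in AF with MNA. AF replicate 1 lay inside the PF range, and the 3 libraries with MNA lay above PF and between the lowest and highest AF library. The difference of AF from PF was 0.85 on the log2 scale (SE 0.33, adjusted p = 0.395, limma). Without AF replicate 2 it was 0.62 and the entry no longer passed the threshold of the methods. AF with MNA differed from PF by 0.66 (SE 0.18, adjusted p = 0.228, limma). Which of Plin4 and Plin5 gave these reads cannot be told apart in this table.

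Summed, the 3 perilipin entries gave 47.8 to 61.1 FPKM in PF, 38.2 to 107 FPKM in AF and 56.6 to 116 FPKM in AF with MNA. Plin2 made up 74.8% to 84.5% of that sum in PF, 63.6% to 79.8% in AF and 75.4% to 87.4% in AF with MNA. The joint share of Plin5 and Plin4 was 7.61% to 15.9% in PF, 14.0% to 23.1% in AF and 8.02% to 16.4% in AF with MNA. In each group Plin2 was thus the most abundant perilipin per unit of length.

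**Figure D3:**
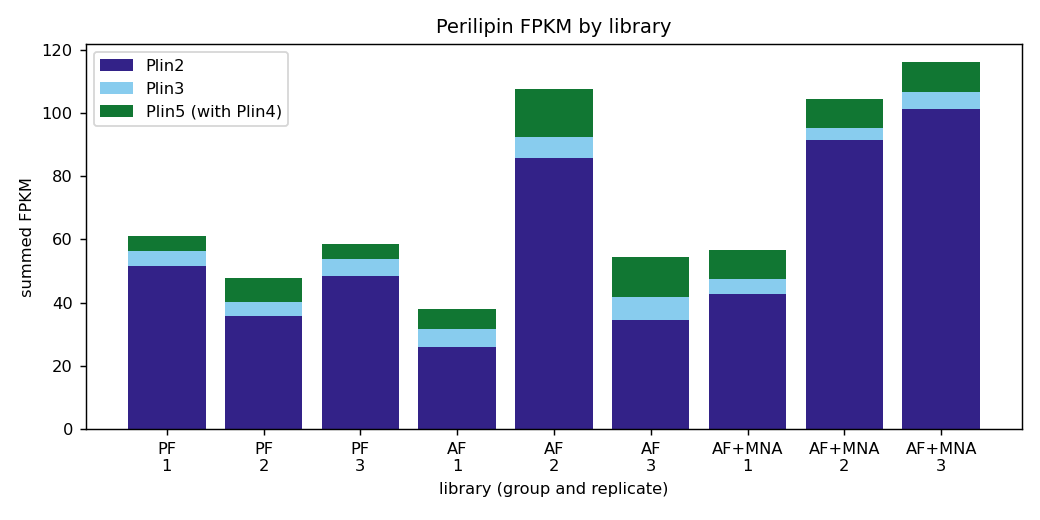
Stacked FPKM of Plin2, Plin3 and the joint entry of Plin5 and Plin4 in each of the 9 libraries, on a linear axis from 0. Plin2 takes from 63.6% to 87.4% of every bar, and AF replicate 2 and AF with MNA replicates 2 and 3 have the tallest bars, at 107, 105 and 116 FPKM.

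Cideb, a CIDE protein of hepatocytes that helps to load triglyceride onto very low density lipoprotein, lies at chr14:55754050-55758458 on the minus strand. It read 148, 124 and 149 FPKM in PF, 106, 87.3 and 103 FPKM in AF, then 118, 118 and 115 FPKM in AF with MNA. The groups kept an order with no overlap at all, PF highest, AF with MNA in the middle and AF lowest. AF differed from PF by -0.50 on the log2 scale (SE 0.15, adjusted p = 0.308, limma). AF with MNA differed from AF by 0.24 (SE 0.14, adjusted p = 0.961) and from PF by -0.26 (SE 0.12, adjusted p = 0.407). These 3 libraries with MNA had the tightest spread of the gene, 117 ± 1.97 FPKM (SD, n = 3).

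Cidec, also called Fsp27, makes large droplets by fusion and is abundant in fat tissue and in fatty liver. It lies at chr6:113424634-113435760 on the minus strand and was near the lower limit of the test. It read 0.33, 0.50 and 0.53 FPKM in PF, 0.61, 1.62 and 0.43 FPKM in AF, and 0.89, 0.78 and 1.67 FPKM in AF with MNA. AF overlapped PF through replicate 3, and all 3 libraries with MNA were above PF. AF with MNA differed from PF by 0.52 on the scale of log2(FPKM + 1), where the added 1 shrinks the difference of so low a gene (SE 0.18, adjusted p = 0.283, limma). With a pseudocount of 0.1 the same difference was 1.08, and without AF with MNA replicate 3 it was 0.34.

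An assembled transcript without known annotation lies inside the Cidec gene on the opposite strand, at chr6:113429424-113431973. It is 1 exon of 2550 bp that touches none of the 12 distinct Cidec exons, and the same values stand in the lncRNA table and in the assembled row named Cidec. It read 2.90, 2.25 and 0 FPKM in PF, 3.31, 3.92 and 3.50 FPKM in AF, and 4.17, 3.42 and 4.17 FPKM in AF with MNA. Its level was thus above that of Cidec itself in 8 of 9 libraries, and PF replicate 3 is listed at 0. The assembled rows named Dgat1, Dgat2 and Plin3 stayed at or below 2.15 FPKM, and each was listed at 0 in at least 1 library.

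Pnpla2 encodes adipose triglyceride lipase, which takes the first fatty acid off stored triglyceride, and lies at chr7:141455198-141460743 on the plus strand. It read 17.7, 23.7 and 21.3 FPKM in PF, 34.6, 40.1 and 31.6 FPKM in AF, and 25.2, 32.5 and 29.5 FPKM in AF with MNA. Every library on the alcohol diet, with or without MNA, was above every PF library, while the 2 alcohol groups overlapped. AF differed from PF by 0.74 on the log2 scale, with a 95% interval of 0.35 to 1.13 (SE 0.16, adjusted p = 0.161, limma). Its size exceeded that of 94.3% of all genes tested, and it stayed between 0.63 and 0.83 over the 16 alternative fits, with an adjusted p of 0.0893 to 0.363. AF with MNA differed from PF by 0.46 (SE 0.15, adjusted p = 0.276, limma) and from AF by -0.28 (SE 0.15, adjusted p = 0.961, limma).

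G0s2, a small protein that binds the lipase and blocks it, lies at chr1:193272161-193273217 on the minus strand. It read 32.9, 46.1 and 40.1 FPKM in PF, 10.9, 67.9 and 32.7 FPKM in AF, and 61.4, 89.5 and 96.9 FPKM in AF with MNA. The 3 libraries with MNA were above all 3 PF libraries, and AF held both the lowest library and one above the lowest library with MNA. AF with MNA differed from PF by 1.03 on the log2 scale (SE 0.22, adjusted p = 0.152, limma). It differed from AF by 1.44 with a 95% interval of -0.02 to 2.91 (SE 0.61, adjusted p = 0.940, limma). Without AF replicate 2 that difference was 2.04, and without AF replicate 1 it was 0.77. AF itself differed from PF by -0.42 with a 95% interval of -1.85 to 1.01, and leaving out AF replicate 1 turned this to 0.26.

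The ratio of inhibitor to lipase varied little among the PF libraries. G0s2 FPKM over Pnpla2 FPKM was 1.86, 1.95 and 1.88 in PF. It was 0.314, 1.69 and 1.04 in AF. The libraries with MNA had 2.44, 2.75 and 3.28. All 3 AF libraries were below PF and all 3 libraries with MNA were above it, with means of 1.9 ± 0.0432, 1.01 ± 0.689 and 2.82 ± 0.428 (SD, n = 3 each). The ratio was built after the levels had been seen and no test was made of it. An exact permutation test of 3 against 3 libraries cannot give a p below 0.1.

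**Figure D4:**
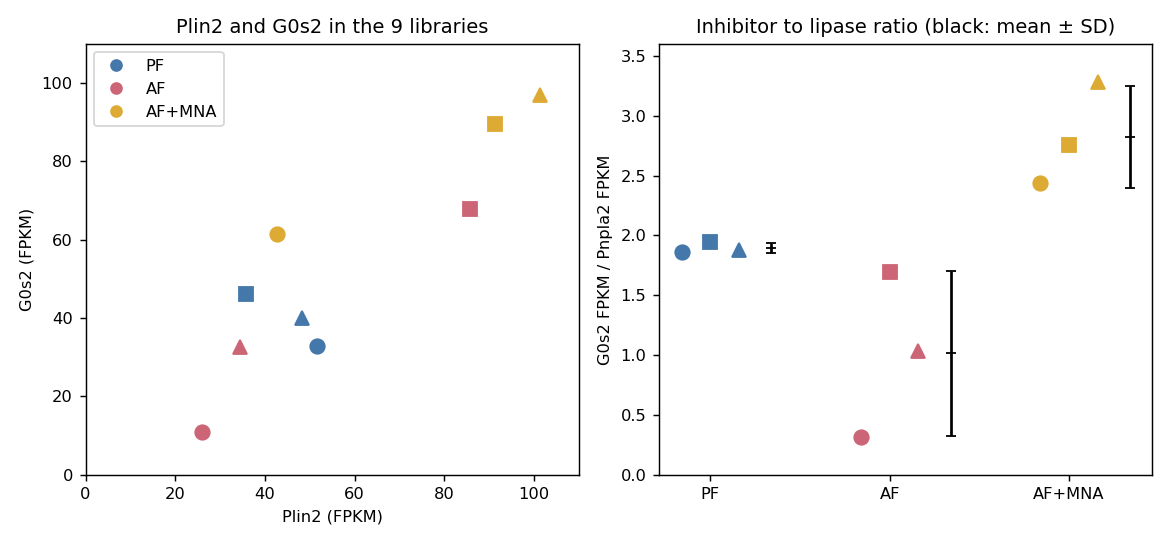
Left, G0s2 FPKM against Plin2 FPKM in the 9 libraries, and right, the ratio of G0s2 FPKM to Pnpla2 FPKM by group with the mean and SD in black, both from 0 on linear axes (circle, square and triangle are replicates 1, 2 and 3). AF replicate 2 lies near the libraries with MNA on the left at 85.8 and 67.9 FPKM, and the 3 PF ratios on the right lie between 1.86 and 1.95.

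Dgat1 and Dgat2 catalyse the last step of triglyceride synthesis, Dgat2 mainly with newly made fatty acids and Dgat1 with fatty acids from outside the cell. Dgat1 lies at chr15:76502015-76511953 and Dgat2 at chr7:99153658-99182719, both on the minus strand. Dgat1 read 4.26, 4.91 and 4.16 FPKM in PF, 5.20, 5.24 and 4.38 FPKM in AF, and 4.47, 5.54 and 4.89 FPKM in AF with MNA. Dgat2 read 106, 132 and 131 FPKM in PF, 118, 102 and 136 FPKM in AF, then 158, 122 and 113 FPKM in AF with MNA. The groups overlapped in every comparison of both genes. For Dgat2 the difference of AF from PF was -0.05 on the log2 scale with a 95% interval of -0.47 to 0.36, and for Dgat1 it was 0.13 with an interval of -0.17 to 0.43. Per unit of length Dgat2 was 19.5 to 35.3 times as abundant as Dgat1 over the 9 libraries.

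Over the 36 pairs of the 9 entries, correlations of log2(FPKM + 1) across the 9 libraries were computed, and the points share 3 diet groups and the depth of each library. Plin2 and G0s2 had r = 0.846 (exact permutation p = 0.00197, adjusted over 36 pairs 0.0303) and rho = 0.85 (exact permutation p = 0.00607, adjusted 0.0992). Without AF with MNA replicates 2 and 3, the libraries farthest out in Plin2, r was 0.731, and between residuals from the group means it was 0.787. Both genes were highest of their group in AF replicate 2 and lowest of their group in AF replicate 1.

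Cideb and Pnpla2 went in opposite directions, with r = -0.928 (exact permutation p = 0.000322, adjusted 0.0116) and rho = -0.85 (exact permutation p = 0.00607, adjusted 0.0992). Without PF replicate 3 and AF replicate 2, r was -0.915, and between residuals from the group means it was -0.664. Cideb and Plin5 (with Plin4) had r = -0.880 (exact permutation p = 0.00252, adjusted 0.0303) and rho = -0.83 (exact permutation p = 0.00827, adjusted 0.0992), with r = -0.711 without the same 2 libraries and -0.814 between residuals. No pair passed the adjustment on rank correlation. These 3 pairs were named for their r over the 9 libraries. Between residuals the highest values were those of Plin5 (with Plin4) with G0s2, at 0.863, and Dgat1 with Pnpla2, at 0.818, whose r over the libraries was 0.428 and 0.740 and did not pass the adjustment over 36 pairs (adjusted exact permutation p = 0.536 and 0.180).

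Those of 3600 other genes (5 FPKM or more on average) that were most like the 3 entries past the threshold of the methods were picked by the highest r over the 9 libraries, as a description. For G0s2 they were Slc25a42, a mitochondrial carrier of coenzyme A (r = 0.958), Gm45244 (r = 0.955) and Wdfy3, a scaffold of selective autophagy (r = 0.951). For Plin5 (with Plin4) they were Diaph1, an actin nucleator (r = 0.959), Sik3, a kinase (r = 0.952) and Elmod3 (r = 0.937). For Cidec they were Net1 (r = 0.905), Insig2, which holds back sterol synthesis (r = 0.903) and Ttpa, the vitamin E carrier (r = 0.884). Between residuals from the group means, the gene most like G0s2 was the entry of the thioesterase Acot1 (r = 0.989), and of the 3 genes named for G0s2, Plin5 and Cidec, 0, 1 (Diaph1) and 1 (Ttpa) were still among the 3 most alike.

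Genes around the set were read from 4 fixed lists. Of 17 genes of triglyceride synthesis, 13 entries were tested in AF against PF. None had an adjusted p under 0.05 in limma and 1 had p under 0.05 without adjustment, where 11.7% of all genes did. It was Agpat2, an acyltransferase that makes phosphatidic acid, at 9.99 FPKM in PF and 6.53 FPKM in AF (adjusted p = 0.354). The median difference over the list was -0.26 on the log2 scale, against -0.03 over all genes. Acsl1, which activates fatty acids, stood at 16.8 to 25.3 FPKM in AF and at 23.0, 53.8 and 60.2 FPKM with MNA, and it was the 1 entry of 14 past the threshold of the methods in AF with MNA against AF (log2 difference 1.05, adjusted p = 0.940, limma), where 1.98% of all genes passed. Against PF, 0 of 13 passed that threshold with MNA, where 3.89% of all genes did, and 1, Lpin2, a phosphatidate phosphatase, had p under 0.05, where 14.5% did (11.4 against 16.7 FPKM, adjusted p = 0.148, limma).

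Of 20 other droplet proteins and lipases, 14 entries were tested in each comparison and none had an adjusted p under 0.05 in limma. In AF against PF 4 of 14 were lower with p under 0.05 and 0 higher, where 6.58% of all genes were lower and 5.1% higher. They were Fitm1 (11.6 against 6.02 FPKM, adjusted p = 0.258), which helps droplets to bud, Ldah (6.62 against 4.21 FPKM, adjusted p = 0.269), a droplet hydrolase, Fabp1 (77.1 against 34.9 FPKM, adjusted p = 0.373), the fatty acid binding protein of liver, and Lipe (3.10 against 2.27 FPKM, adjusted p = 0.391), hormone-sensitive lipase. The Fabp1 groups overlapped and Fabp1 was the 1 entry past the threshold of the methods, where 2.35% of all genes were lower past it. The median difference over the 14 entries was 0.016 on the log2 scale in AF against PF, 0.054 in AF with MNA against AF and -0.11 in AF with MNA against PF, against -0.03, 0.01 and -0.02 over all genes. With MNA against PF, 2 of 14 were higher and 2 lower with p under 0.05, where 6.52% of all genes were higher and 7.94% lower. Lipe stood at 3.10 and 2.18 FPKM (adjusted p = 0.235) and Ldah at 6.62 and 5.11 FPKM (adjusted p = 0.275), both with all libraries below PF. Ces1d, a carboxylesterase that mobilizes stored triglyceride, stood at 149 and 288 FPKM (adjusted p = 0.129), and Hsd17b11, a droplet dehydrogenase, at 27.2 and 39.7 FPKM (adjusted p = 0.126), both with all libraries above PF. Against AF the same genes had log2 differences of 0.72 and 0.35 without overlap (adjusted p = 0.940 for both, limma).

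Of 9 receptors and factors that control droplet genes, 7 entries were tested and none passed the threshold of the methods in any of the 3 comparisons or had an adjusted p under 0.05 in limma, while 1, 0 and 2 of them had p under 0.05 without adjustment, where 11.7%, 5.22% and 14.5% of all genes did. Ppara, the fatty acid receptor of hepatocytes, read 7.67 to 11.4 FPKM in PF, 6.90 to 14.7 FPKM in AF and 12.7 to 13.7 FPKM with MNA, and differed from PF in AF with MNA by 0.43 on the log2 scale (adjusted p = 0.284, limma). Pparg was low, at 1.08 to 1.55 FPKM in PF and 1.58 to 2.04 FPKM on the alcohol diet with or without MNA, with no overlap. Ppargc1a, a coactivator of fasting metabolism, was at 2.43 FPKM in PF and 4.64 FPKM in AF (adjusted p = 0.414, limma).

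Other PPAR target genes showed the clearest values next to the set. With MNA against PF, 2 of 14 entries rose with an adjusted p under 0.05 in limma, where 0.301% of all genes did. Cyp4a14, a fatty acid hydroxylase, read 62.6, 45.7 and 28.9 FPKM in PF and 233, 233 and 324 FPKM with MNA (log2 difference 2.55, SE 0.30, adjusted p = 0.0395). The entry of Acot1, an acyl-CoA thioesterase merged here with Acot2, read 3.12, 5.07 and 4.82 FPKM in PF and from 20 to 26.6 FPKM with MNA (log2 difference 2.21, SE 0.19, adjusted p = 0.0171). Both calls depended on the fit. With the replicate number as a block the adjusted p was 0.221 for Cyp4a14 and 0.0741 for Acot1, and with a library-size covariate and no moderation it was 0.421 and 0.373. With 1 library left out, 1 of 6 fits kept the Cyp4a14 call (without PF replicate 1) and 4 of 6 kept the Acot1 call (lost without AF with MNA replicate 2 or 3). In all, 7 of 14 passed the threshold of the methods, each higher, and 10 of 14 had p under 0.05 and no overlap with PF, each higher, where 1.94% of all genes were higher past that threshold, 6.52% at that p and 9.54% without overlap. Pdk4 (0.30 FPKM in PF) and Fabp4 (0.43 FPKM) were under the minimum of the test in PF and entered it through the alcohol group. Without them the counts were 5 and 8 of 12. The median difference was 0.79 on the log2 scale over the list and -0.02 over all genes.

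The same list in AF against PF had 0 of 14 entries with an adjusted p under 0.05 in limma, and 3 were higher with p under 0.05 without adjustment, where 5.1% of all genes were. Cyp4a14 stood at 97.4, 234 and 195 FPKM in AF (log2 difference from PF 1.89, adjusted p = 0.155). Fabp4, a fatty acid binding protein of fat cells and macrophages, stood at 0.43 FPKM in PF and 0.99 FPKM in AF (adjusted p = 0.158), so that it entered the test through AF. Both passed the threshold of the methods. Without Fabp4 and Pdk4, under the minimum in PF, 2 of 12 entries were higher with p under 0.05 and 1 of 12 past the threshold, where 1.95% of all genes were higher past it. Between AF with MNA and AF, 0 of 14 had an adjusted p under 0.05, 3 were higher with p under 0.05 without adjustment (Vnn1, Acot1 and Acadm), where 2.91% of all genes were, and the median difference was 0.49 on the log2 scale against 0.01 over all genes.

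**Figure D5:**
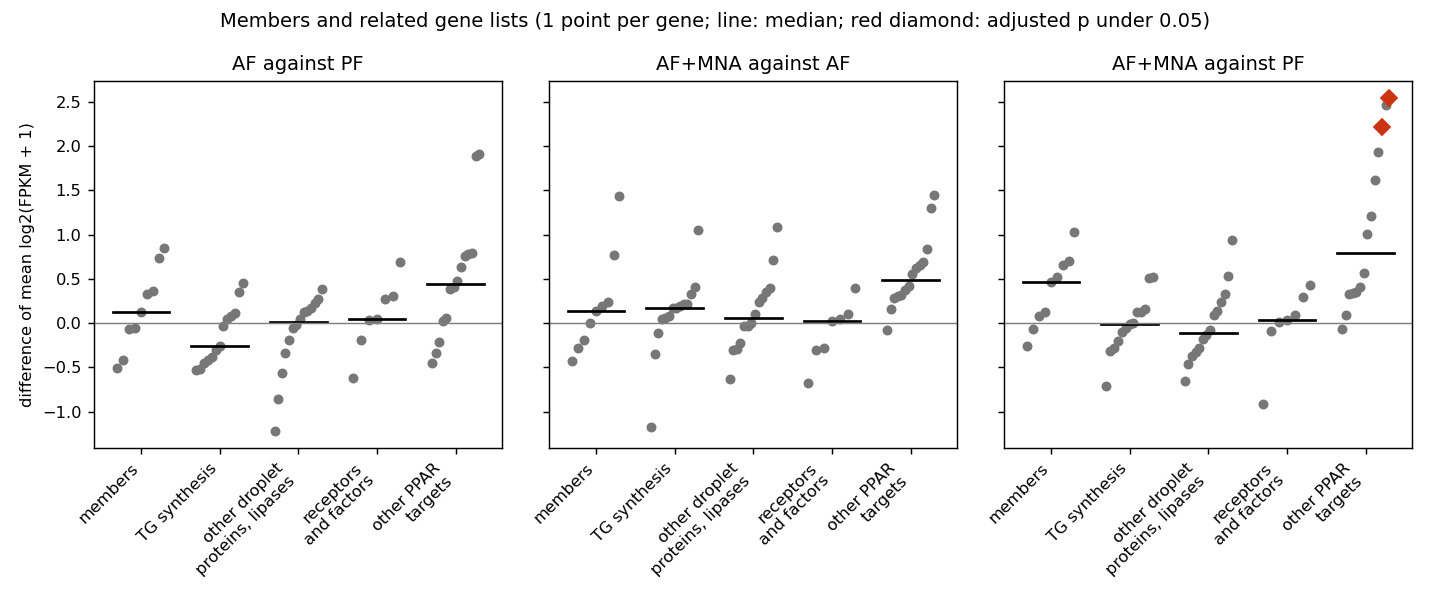
Difference of the mean log2(FPKM + 1) of the 9 entries and of each tested gene of the 4 lists in the 3 comparisons, 1 point per gene, with the median as a black line and red diamonds for an adjusted p under 0.05. The 2 diamonds are Acot1 (2.21) and Cyp4a14 (2.55) in AF with MNA against PF, and the medians of the other PPAR targets lie at 0.44, 0.49 and 0.79.

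Within AF, the libraries that were high and low for Plin2 and G0s2 were high and low for PPAR targets too. Ehhadh, a peroxisomal enzyme of fat oxidation, read 6.41, 91.0 and 11.6 FPKM in AF replicates 1 to 3. Pdk4, a kinase that spares glucose in fasting, read 0.76, 24.0 and 1.67 FPKM, and the entry of Acot1 read 2.93, 16.9 and 9.02 FPKM. In PF, Ehhadh read 20.4, 9.59 and 9.09 FPKM and Pdk4 0.40, 0.27 and 0.24 FPKM. Replicate 2 was thus the highest and replicate 1 the lowest AF library in all of these genes. What set AF replicate 2 apart was not tested.

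The hepatocyte markers differed in direction between PF and AF. Tat stood at 164 and 388 FPKM with overlap (adjusted p = 0.393, limma). It passed the threshold of the methods, where 4.3% of all genes did. Cps1, at 904 and 1257 FPKM, was higher without overlap (adjusted p = 0.467, limma). Serpina1a, at 1349 and 1124 FPKM, was lower without overlap (adjusted p = 0.571, limma). Alb, Apoa1 and Ttr overlapped, with Ttr at 2329 and 1493 FPKM (adjusted p = 0.446, limma). Markers of other liver cells were summed by library. The summed endothelial markers ran from 18.1 to 22.6 FPKM in PF, 22.0 to 31.4 FPKM in AF and 27.4 to 30.1 FPKM in AF with MNA, and 3 of the 4 were higher with p under 0.05 in AF with MNA against PF, where 6.52% of all genes were higher. The summed Kupffer cell markers ran from 25.9 to 30.5, 16.2 to 30.8 and 22.0 to 32.1 FPKM, and the summed stellate cell markers from 12.4 to 18.0, 10.7 to 17.6 and 13.5 to 15.7 FPKM, in the same order of groups. The Kupffer cell markers differed in direction. Marco, a scavenger receptor, stood at 0.80, 1.91 and 2.39 FPKM on average in PF, AF and AF with MNA, and was past the threshold of the methods in both alcohol groups against PF (adjusted p = 0.365 and 0.152, limma). Vsig4, at 8.86 FPKM in PF and 6.16 FPKM in AF, was lower without overlap (adjusted p = 0.429, limma), Clec4f stood at 13.2 and 8.49 FPKM and Adgre1 at 4.34 and 3.70 FPKM, and the median difference over the 5 tested Kupffer cell markers was -0.25 on the log2 scale in AF against PF. The stellate cell markers Des and Col1a1 stood at 0.76 and 0.54 FPKM in PF and at 1.45 and 0.99 FPKM in AF, without overlap (adjusted p = 0.288 and 0.414, limma), while an entry of Reln, at 5.96 and 4.05 FPKM, was lower with overlap (adjusted p = 0.423, limma). The summed fat cell markers, nearly all Lipe, were 3.16 to 3.22 FPKM in PF and 1.88 to 2.56 FPKM in the alcohol groups. The summed neutrophil markers were 0.17 to 0.75 FPKM in PF, 0.76 to 2.19 FPKM in AF and 0.29 to 0.74 FPKM with MNA, so that every AF library was above the other groups at a low level. The summed bile duct markers did not exceed 2.46 FPKM. The part of these cells in the droplet gene values was not tested.

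Of circular RNAs, the junction table held 1 from these genes, an intronic circle of Plin2 at chr4:86660298-86661933, with 4 junction reads in PF replicate 2 and 0 in the other libraries, too few to compare groups.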

How the data were processed

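Libraries were strand-specific after removal of ribosomal RNA, 1 for each replicate. The gene FPKM values were made by the authors with StringTie (the submitters' processing notes list cutadapt 1.9, FastQC, HISAT2 and StringTie 1.3.4), and 437 entries merge 2 or more coding genes. The authors also deposited lncRNA FPKM with the coverage signal of each transcript, and circRNA junction counts with a normalized signal. The genome build is not given in the sources used here. Positions are from GENCODE M21 (GRCm38), where 7708 of 7879 known lncRNA transcripts had the same start and end.

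Named entries with known transcripts that averaged 0.5 FPKM or more in the 6 libraries of a comparison entered limma 3.58.1 as log2(FPKM + 1) (lmFit, eBayes with trend, two-sided, Benjamini-Hochberg), a fit tested on simulated data. Fold is the ratio of group mean FPKMs. The 25801 assembled entries were left out of the tests. There are no gene counts, so precision is the spread between libraries, which may be technical. Of entries above 1 FPKM in either library, at most 0.472% held the same value to the last deposited digit in 2 replicates. R 4.3.3, Python 3.11.15, scipy 1.17.1 and pandas 2.3.3 were used.

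The genes, lists and tests were chosen with earlier results of these data known. The text names the 10 genes, up to 6 of each list (by adjusted p, then the threshold of the methods, then size in AF against PF) and the 3 genes most like each entry past the threshold. Genes named for a count, for AF replicate 2 or as cell markers, and the ratios, were chosen after their values were seen. Alternatives were another pseudocount, other minimum levels, scaling to the same median, no trend, all 9 libraries, a replicate block, a library-size covariate in a model without moderation (both changed at once) and each library left out. All gene entries, entries without merged genes, the refits of Acot1 and Cyp4a14, and counts without entries under the minimum in 1 group were added after seeing the data. The values of 1 gene of the PPAR target list are not reported here.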

Additional observations from a re-analysis of the deposited data

How the results depend on the processing

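No entry reached an adjusted p under 0.05 in any of the 16 alternatives of a comparison. The lowest were 0.0893 (Pnpla2, AF against PF, all 9 libraries in the fit), 0.676 (Plin3, AF with MNA against AF, without AF replicate 3) and 0.0804 (Plin5, AF with MNA against PF, without PF replicate 2). The direction of the fitted difference was kept in 134 of 141, 137 of 142 and 136 of 142 refits of the 9 entries in the 3 comparisons. The level of each entry in each group moved by less than 1 SD when libraries were scaled to the same median. Where a cause is not named, the cause was not tested. The covariate fit below added library size and dropped moderation at once, and which of these moved a value was not tested.

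Genes with an adjusted p under 0.05 in AF against PF numbered 40, against 25 with no minimum level, 86 with all 9 libraries and 0 with the library-size covariate without moderation, where 335 passed the threshold of the methods. The 527 genes past that threshold became 1183 with no minimum, 265 with a minimum of 2 FPKM and 993 with all gene entries. With MNA against AF, 6 genes became 2 with no minimum, 2 with 2 FPKM, 0 with all 9 libraries and 1 with the covariate, and 242 became 676, 81, 572 with all entries and 106 with the covariate. With MNA against PF, 53 became 22 with no minimum and 0 with the covariate, and 477 became 1105, 228, 837 with all entries and 246 with the covariate.

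Of the 9 entries, the 1 past the threshold in AF against PF became 0 with the covariate fit and 0 without merged entries (Plin5 left out), and the 4 at p under 0.05 became 2 with the covariate fit. In AF with MNA against AF the 0 past the threshold and 1 at p under 0.05 became 1 and 2 with all 9 libraries, G0s2 being added. In AF with MNA against PF the 2 past the threshold became 1 with a minimum of 2 FPKM (Cidec left out), 0 with all 9 libraries and 0 with the covariate, and the 4 at p under 0.05 became 2 with all 9 libraries and 0 with the covariate.

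Leaving out 1 library gave 25 to 47, 6 to 13 and 24 to 47 genes with an adjusted p under 0.05 in the 3 comparisons, and 211 to 367 past the threshold in AF with MNA against AF. Entries past the threshold ran from 0 to 1, 0 to 2 and 0 to 3, and entries at p under 0.05 from 2 to 4, 0 to 3 and 2 to 5. The highest values between AF with MNA and AF came without AF replicate 2, and the lowest between AF with MNA and PF without PF replicate 1 (for the threshold also without AF with MNA replicate 3). Plin5 in AF against PF was lost without AF replicate 2, AF replicate 3, PF replicate 1 or PF replicate 3. Signs turned for some differences. In AF against PF the ranges were -0.56 to 0.28 for Plin2, -1.01 to 0.26 for G0s2 and -0.16 to 0.048 for Dgat2, which was 0.017 with the covariate. With MNA against AF they were -0.064 to 0.067 for Dgat1, which was -0.0066 with scaling to the same median, -0.53 to 0.039 for Plin5 and -0.0093 to 0.24 for Dgat2. With MNA against PF they were -0.16 to 0.018 for Plin3 and -0.063 to 0.18 for Dgat2, and with the covariate Plin3 was 0.052 and Dgat1 -0.0098.

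Replicate numbers are shared between groups, but the deviations of libraries with the same number correlated at only -0.12 to 0.06 and no library matched its own number best. That gave no sign of pairing by number, but deviations from means of 3 libraries cannot show that the samples are unpaired. With the replicate number as a block, 18, 1 and 0 genes had an adjusted p under 0.05 in the 3 comparisons, and in AF with MNA against AF 1 entry passed the threshold (G0s2) and 2 had p under 0.05. The adjusted calls of Acot1 and Cyp4a14 in AF with MNA against PF were lost with the block (0.0741 and 0.221). Over 15 refits of Acot1 the adjusted p was 0.0162 to 0.373, under 0.05 in 10, and over 16 of Cyp4a14 it was 0.0337 to 0.421, under 0.05 in 8. The block changed no other call of the 9 entries.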
